A study of Mus musculus with 69 samples.

Results

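The 39 genes described here encode the machinery of mitosis, from the cyclin and kinase that start it to the proteins that cut the daughter cells apart. They form a list of known mitotic genes, the rule uses no measured value although the list was drawn up with earlier results of these data known, and all 39 were found by symbol among the 24309 genes of the CD8+ and CD4+ count tables and the 24311 genes of the retrovirus table. RNA was sequenced from T cells of mice, 8 to 16 weeks old, that carried different numbers of alleles of Stat5a and Stat5b, the adjacent genes for the paralogous transcription factors STAT5A and STAT5B. The genotypes were WT (Stat5a+/+ Stat5b+/+), AAB (Stat5a-/- Stat5b+/-, in which 1 Stat5b allele remained) and BBA (Stat5a+/- Stat5b-/-, in which 1 Stat5a allele remained). The deletions were germline deletions, present in every cell of the animal. CD8+ cells from pooled lymph node and spleen were sorted as naive (Tnv, CD44 low CD62L high), central memory (Tcm, CD44 high CD62L high) or effector memory (Tem, CD44 high CD62L low) cells. They were processed directly ex vivo or after 12 to 16 h in IL-7 (Tnv and Tcm) or IL-15 (all 3 states), with 2 libraries for each genotype and condition. Naive CD4+ cells were taken ex vivo or after 12 to 16 h in IL-7, with 2 or 3 libraries per group. None of these cells were cultured without cytokine, so cytokine and time in culture cannot be told apart. A change with a cytokine below means a difference between that culture and ex vivo cells. A further 4 libraries came from cells labelled as AAB CD8+ cells, activated with anti-CD3 and anti-CD28 for 24 h, transduced with a retrovirus carrying a constitutively active mutant of mouse Stat5a (CA-STAT5A) or with the empty vector, and grown for 48 h more in IL-2 before GFP+ cells were sorted. The question put to these genes was whether cells of each genotype, state and culture carried the transcripts of dividing cells within the culture time.

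A cell enters mitosis when cyclin B binds and activates CDK1, after DNA has been copied in S phase. Kinases of the Plk and Aurora families and kinesin motors then build the spindle, kinetochores attach chromosomes to it, the spindle checkpoint holds the cell until all are attached, and CDC20 and UBE2C drive the ubiquitination that starts anaphase. Transcripts of these genes accumulate late in the cycle, in G2 and M, and are scarce in resting cells. Lymphocytes that have just been stimulated need many hours to pass through G1 and S phase before they reach that stage. IL-7 and IL-15 are cytokines of the common gamma chain family that activate STAT5 and maintain naive and memory T cells.

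Promoters of mitotic genes are known for a pair of elements, the CHR (cell cycle genes homology region) and the CCAAT box. RefSeq promoter sequence of build GRCm38.p6, from 250 bases before to 50 bases after the start, was found for 34 of the 39 genes. The CHR letters TTTGAA or TTCGAA, on either strand, stood in 28 of these 34 promoters (82.4%) and in 5854 of 27025 promoters of all genes (21.7%). CCAAT, on either strand, stood in 26 of them (76.5%) against 11096 of all (41.1%), and both together stood in 24 (70.6%) against 2328 (8.61%). Overlap between the motifs was not barred. The windows below are the CHR matches of 8 genes whose transcripts are followed through the comparisons, shown because genes that went up and genes that went down carried the same letters. Each is 30 bases of the gene's own strand, 5′ to 3′, with the match in capitals (TTCAAA is TTTGAA on the other strand). A match describes these letters in this window and nothing more.
Ube2c, chr2:164769888-164769917, plus strand: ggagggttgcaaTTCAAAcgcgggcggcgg
Cenpf, chr1:189688067-189688096, minus strand: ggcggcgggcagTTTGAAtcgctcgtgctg
Kif11, chr19:37376351-37376380, plus strand: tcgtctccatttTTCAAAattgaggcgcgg
Hmmr, chr11:40733412-40733441, minus strand: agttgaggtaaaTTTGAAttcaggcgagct
Cenpa, chr5:30666890-30666919, plus strand: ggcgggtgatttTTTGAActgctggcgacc
Kif22, chr7:127042420-127042449, minus strand: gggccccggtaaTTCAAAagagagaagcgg
Kif23, chr9:61946780-61946809, minus strand: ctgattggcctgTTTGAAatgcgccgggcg
Cdc20, chr4:118437344-118437373, minus strand: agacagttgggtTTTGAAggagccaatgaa

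The 69 libraries held between 5926139 and 34118295 reads counted on genes, and the 39 genes together took 1230 to 19009 of these reads per library. The genotypes showed in the targeted transcripts of the CD8+ libraries: Stat5a lay at 32.4 to 108 CPM (a gene's reads scaled to a common library total) in WT, 0.964 to 4.87 in AAB and 34.9 to 49.7 in BBA, and Stat5b at 164 to 351 in WT, 78.2 to 140 in AAB and 48.6 to 93.2 in BBA. 1 CD8+ library stood apart in CD4 lineage and regulatory T cell markers. In WT Tnv with IL-15, replicate 2 held 327 CPM summed over the markers Cd4, Zbtb7b and Cd40lg against 11.3 in replicate 1. Regulatory T cell markers summed to 334 CPM against 38.9. Counts of called members for WT Tnv with IL-15, against ex vivo cells and against BBA, are given with and without this library. AAB against WT, the Tnv interactions and the counts of S-phase and further mitosis genes have no value given without it. The 4 retrovirus libraries went against their CD8+ label, with 1.70 to 4.71 CPM summed over Cd8a and Cd8b1. The natural killer cell markers Ncr1, Klrb1c, Klre1 and Klra8 summed to 1827 to 2167 CPM in them, where no CD8+ library passed 13.1. That sum came from Ncr1, Klrb1c and Klre1, since Klra8 reached 0.121 CPM at most. B cell markers summed to 10.3 to 519 CPM in the CD8+ libraries, and myeloid markers to 1.87 to 652 CPM. By Xist and Y-linked transcripts the Tnv libraries with IL-7 all came from males and the Tnv libraries ex vivo or with IL-15 all came from females, so that sex and IL-7 cannot be told apart in CD8+ Tnv.

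Levels below are CPM on library totals scaled by the trimmed mean of M values (TMM), and the level over all members is the mean of log2(CPM + 0.5) over the 39 genes of a library. Differences are log2 fold changes from edgeR's quasi-likelihood test, with their standard error (SE) and a p-value adjusted over all genes tested by the Benjamini-Hochberg method. Calls required a change of over 1.5-fold and an adjusted p under 0.05. Each fit tested only genes that passed a filter on low counts, which left between 11 and 39 members in a comparison. A member that passes such a filter through the one group in which it is high tends to be one that differs, so the counts below describe the members tested and are no estimate for all 39. Ttk, Nuf2, Spc25 and Anln passed in none of the 10 comparisons between genotypes made within a condition, and Ccna2, Mad2l1, Cenpa, Kif20a, Kif22, Kif23, Hmmr, Racgap1, Mki67 and Top2a passed in all 10. Over 70 contrasts, the members were called 73 times in 258 tests between cell states, 52 times in 419 tests of a cytokine, 16 times in 684 tests between genotypes, 0 times in 334 interaction tests and 1 time in 39 tests of the retrovirus table. The share of all genes called ran from 0.0782% to 7.91% over the state contrasts and from 0% to 20.2% over the cytokine contrasts. It ran from 0.00949% to 23.7% over the genotype contrasts and from 0% to 4.26% over the interactions. For the retrovirus it was 6.76%. The pooled counts therefore do not by themselves compare these families of tests. In each of the 70 contrasts the median difference of all genes lay within 0.05 of 0 on the log2 scale.

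**Figure D1:**
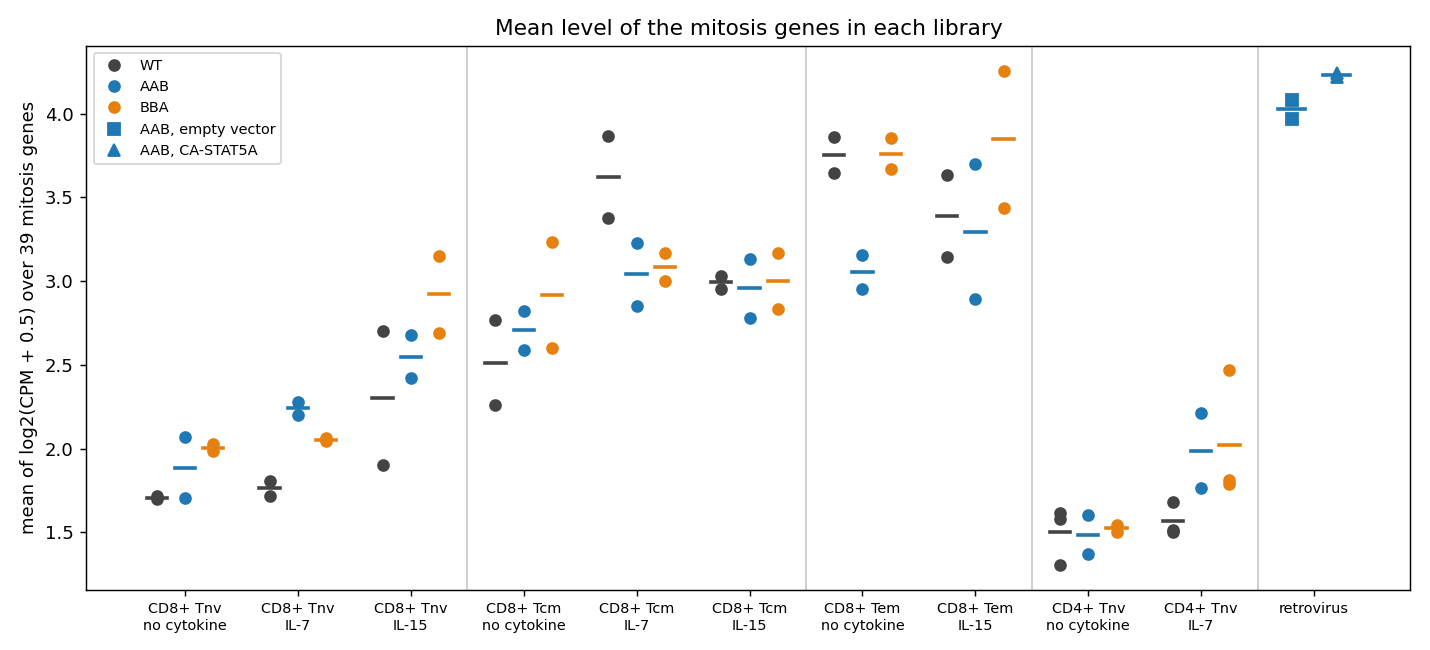
Mean log2(CPM + 0.5) of the 39 mitosis genes in each library (points) with the group mean (bars), by cell state and culture for CD8+ cells, then for naive CD4+ cells and the retrovirus libraries. WT Tem ex vivo sit near 3.75 and WT Tnv ex vivo near 1.71, AAB Tem ex vivo lie near 3.05, and the retrovirus libraries lie above 3.9.

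Directly ex vivo, the mitosis genes followed the differentiation state. Their mean log2 level in WT was 1.71 ± 0.009 in Tnv, 2.51 ± 0.36 in Tcm and 3.75 ± 0.15 in Tem (SD, n = 2 each). In the Tem and Tnv comparison 28 of the 32 members tested were called higher in Tem and 0 lower, where 7.91% of all genes tested were called, and the members' median difference was 2.42 (range -0.49 to 4.65) against -0.00039 for all genes. Bulk RNA cannot separate fewer cells in mitosis from less of these transcripts in each cell. The count fell to 16 without replicate 2 of WT Tnv ex vivo and was 35 of 39 when no filter was used.

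The largest difference between WT Tem and Tnv was that of Kif4, a chromokinesin, with a log2 difference of 4.65 (SE 0.56, adjusted p = 0.00365). It lay at 0.306 and 0.291 CPM in the Tnv libraries, on only 4 and 5 reads, and at 7.95 and 7.08 in the Tem libraries. Mki67, which encodes the Ki-67 coat protein of mitotic chromosomes, lay at 7.35 and 7.5 CPM in Tnv, at 36.4 and 23.3 in Tcm and at 154 and 129 in Tem, and rose by 4.28 from Tnv to Tem (SE 0.23, adjusted p = 0.000385). The states did not overlap for either gene. Top2a, the topoisomerase that untangles replicated chromosomes, showed the same order with 8.73 and 6.74, 30.9 and 22.4, and 88.3 and 89.1 CPM, a rise of 3.56 from Tnv to Tem (SE 0.20, adjusted p = 0.000385).

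The genes of mitotic entry were nearly silent in WT Tnv and rose in Tem. Cdk1, the mitotic kinase, went from 0.690 and 0.465 CPM, on only 9 and 8 reads, to 8.41 and 6.36, a difference of 3.71 (SE 0.65, adjusted p = 0.0151). Its partner Ccnb1, cyclin B1, went from 0.613 and 0.988 to 7.01 and 5.76, a difference of 2.99 (SE 0.55, adjusted p = 0.0194). Ccna2, the cyclin of S phase and G2, was already at 8.81 and 8.89 CPM in Tnv and rose by 1.42 to 25.6 and 20.7 (SE 0.21, adjusted p = 0.00859). The Tem values thus lay above the Tnv values for the G2 to M pair and for the earlier cyclin alike, with a smaller difference for the latter.

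The later steps of mitosis had higher means in WT Tem too. The chromosomal passenger complex, which corrects faulty attachments, had a mean of 0.86 in Tnv, 2.14 in Tcm and 3.43 in Tem on the log2(CPM + 0.5) scale. Its kinase Aurkb lay at 0.306 and 0.639 CPM in Tnv, on only 4 and 11 reads, and at 9.43 and 8.16 in Tem (log2 difference 4.18, SE 0.41, adjusted p = 0.00165). The spindle checkpoint genes Bub1, Bub1b, Ttk and Mad2l1 had the lowest mean of the roles in Tnv, 0.76, against 1.78 in Tcm and 3.06 in Tem, and of these Mad2l1, which binds CDC20, rose from 10 and 8.89 CPM in Tnv to 22.6 and 16.1 in Tem (1.06, SE 0.25, adjusted p = 0.0473). Plk1, a kinase that acts from mitotic entry to cytokinesis, rose by 1.57 (SE 0.30, adjusted p = 0.0215), from 2.60 and 4.53 CPM to 10.6 and 10.4. The kinesins, motors that separate the poles and carry chromosomes, had means of 1.93, 2.59 and 3.77, and their member Kif11, which pushes the poles apart, rose by 3.46 from Tnv to Tem (SE 0.21, adjusted p = 0.000385). Kif23, a motor of the midzone and midbody in cytokinesis, was the member that pointed down: it lay at 33.1 and 32.3 CPM in Tnv and 18.4 and 26.9 in Tem. The cytokinesis genes had means of 3.13 in Tnv and 4.34 in Tem, and their member Racgap1, a protein of the spindle midzone, lay at 163 and 175 CPM in Tnv and 175 and 186 in Tem. Per kilobase of exon, Racgap1 was the most abundant member in WT Tnv and in WT Tem, at 23.9 and 25.5 CPM per kilobase, and Mki67 followed in Tem with 14.0. Anln, which encodes the contractile ring protein anillin, was the least abundant in Tem at 0.478.

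**Figure D2:**
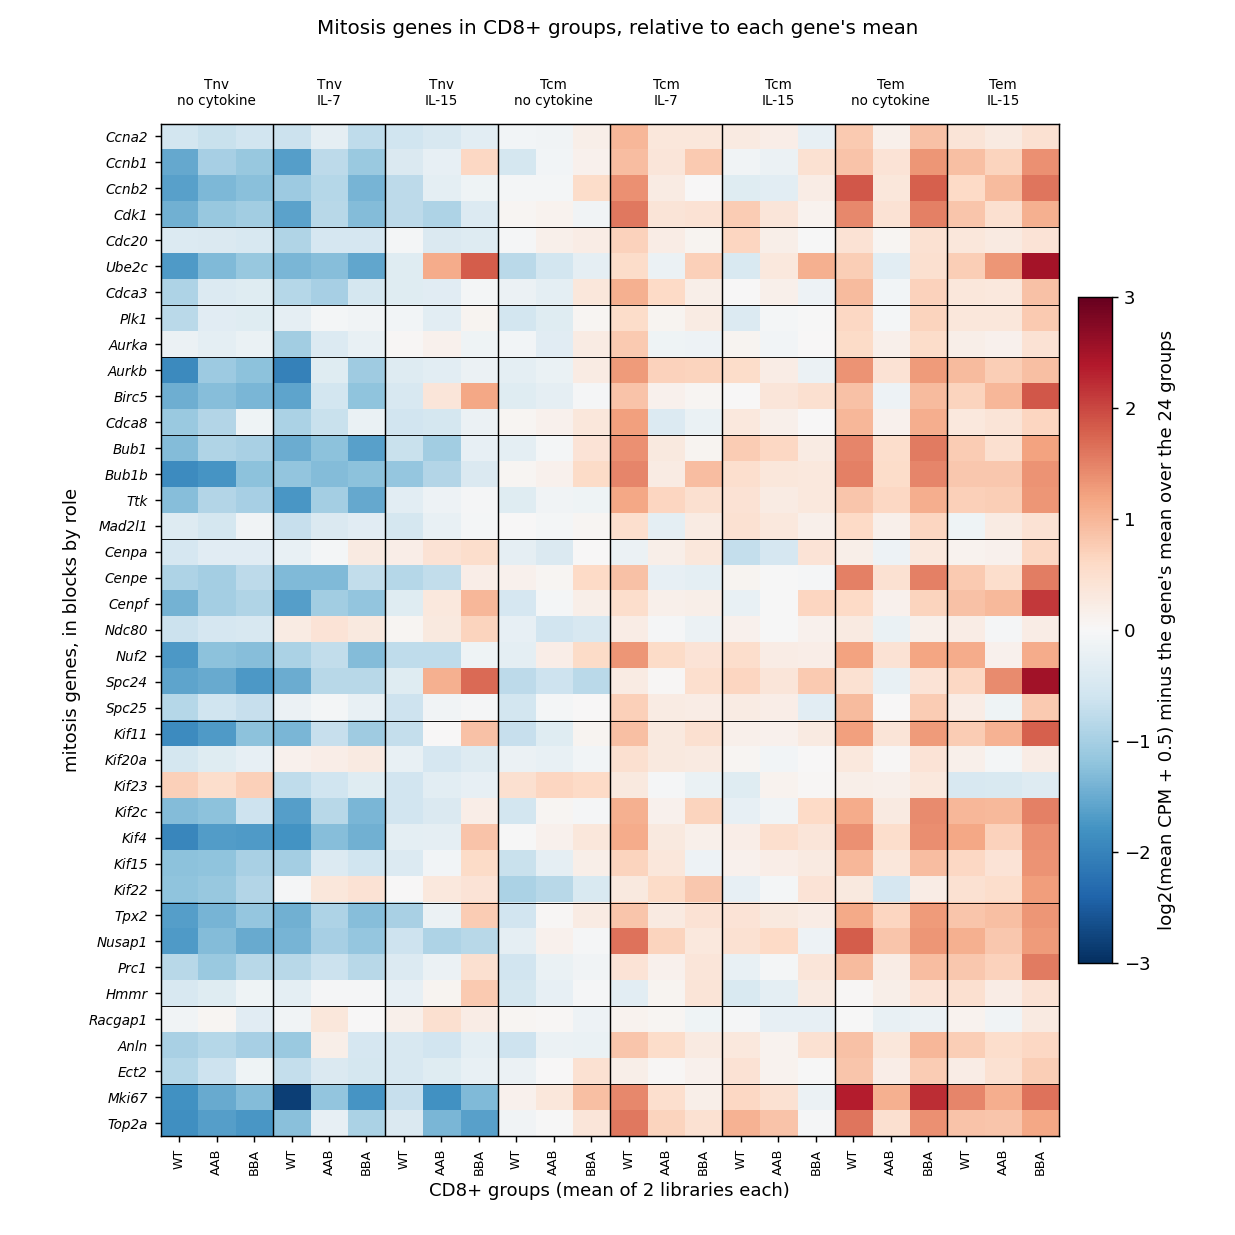
Heat map of log2(mean CPM + 0.5) of each mitosis gene in each of the 24 CD8+ groups, minus the gene's mean over those groups, with genes in blocks by role; colours run from -3 to 3. Most genes are low in Tnv and high in Tem ex vivo, AAB Tem ex vivo are paler than WT and BBA Tem, and Kif23 and Racgap1 do not follow the order of states.

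WT Tcm lay between the other states. Against Tnv, 4 of 32 members were called, all higher (Top2a, Mki67, Kif11 and Aurkb, with differences of 1.78, 1.99, 1.39 and 2.28), where 2.71% of all genes were called, and the members' median was 1. Tem against Tcm gave 9 called members of 32, all higher, where 1.9% of all genes were called, with a median of 1.41, led by Mki67 at 2.29 (SE 0.21, adjusted p = 0.00609) and Kif11 at 2.07 (SE 0.19, adjusted p = 0.00609). Both counts rested on single libraries. The first went to 0 without replicate 2 of Tnv and to 12 without replicate 2 of Tcm, and the second went to 0 without replicate 1 of Tem, while DESeq2 called 11 and 20. With a replicate block, in which libraries of the same number were treated as a pair, 15 and 26 members were called, all higher, where 7.7% and 6.4% of all genes were called.

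The rise from Tnv to Tem was present in both mutant genotypes. In BBA, 20 of 33 members were called higher in Tem and 0 lower, where 5.4% of all genes were called, with a median of 2.12. Mki67 led by adjusted p, at 13 and 8.48 CPM in Tnv and 139 and 120 in Tem (3.67, SE 0.34, adjusted p = 0.00772), and Kif4 had the largest difference (4.03, SE 0.56, adjusted p = 0.0193). In AAB, 10 of 21 members were called higher and 0 lower, where 7.64% of all genes were called, with a median of 1.20, led by Tpx2, which activates Aurora A on the spindle (2.27, SE 0.32, adjusted p = 0.0072). Mki67 in AAB lay at 3.95 and 14.6 CPM in Tnv and 58.6 and 56.9 in Tem, with a difference of 2.69 (SE 0.53, adjusted p = 0.0244). The BBA count went to 0 without replicate 1 of BBA Tnv, and the AAB count to 1 without replicate 1 of AAB Tem. For the intermediate steps edgeR called 2 of 21 members in AAB Tcm over Tnv (4.11% of all genes, median 1.02), which were Top2a and Tpx2, and 0 without replicate 1 of Tnv. It called 0 of 21 in AAB Tem over Tcm (1.04% of all genes, median 0.38, 2 members at unadjusted p under 0.05, 1 in each direction, 0 by DESeq2). In BBA it called 0 of 33 in Tcm over Tnv (0.508% of all genes, median 1.17, 19 members higher at unadjusted p under 0.05, 11 by DESeq2) and 0 of 33 in Tem over Tcm (0.0782% of all genes, median 0.98, 18 higher at unadjusted p under 0.05, 3 by DESeq2). Without replicate 2 of BBA Tcm the first of these 2 counts was 3. With a replicate block the counts were 13 for AAB Tcm over Tnv (7.96% of all genes), 1 for AAB Tem over Tcm (3.72%), 12 for BBA Tcm over Tnv (4.72%) and 7 for BBA Tem over Tcm (3.86%), all higher.

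In Tem ex vivo the AAB libraries lay below both other genotypes over most of the members, and no member passed the test without a replicate block. The mean log2 level was 3.86 and 3.64 in WT, 2.96 and 3.15 in AAB and 3.85 and 3.67 in BBA, so that the AAB libraries did not overlap with the others. Mki67 lay at 154 and 129 CPM in WT, 58.6 and 56.9 in AAB and 139 and 120 in BBA. Ccnb2, cyclin B2, lay at 18.8 and 14.8, 5.80 and 5.33, and 16.7 and 15.4 CPM. Neither gene overlapped between AAB and the other genotypes. Top2a, at 88.3 and 89.1, 38.1 and 42.5, and 86.1 and 64.6 CPM, had the same order.

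For AAB against WT Tem the members' median difference was -0.73 (range -1.55 to 0.19, all genes 0.0027), and 33 of 35 tested members were below 0. edgeR called 0 of 35, where 0.0197% of all genes, 2 in number, were called, while 21 members lay lower at unadjusted p under 0.05 and DESeq2 called 4. The lowest adjusted p was that of Mki67 (-1.25, SE 0.13, adjusted p = 0.0551), followed by Ccnb2 (-1.55, SE 0.21, adjusted p = 0.105) and Top2a (-1.11, SE 0.15, adjusted p = 0.105). AAB against BBA had a median of -0.78, with 0 of 35 called by edgeR, where again 0.0197% of all genes were called, 25 members lower at unadjusted p under 0.05 and 3 called by DESeq2. BBA against WT had a median of 0.06 and 0 of 35 called, where 0.207% of all genes were called, with 0 at unadjusted p under 0.05 and 0 by DESeq2. With a replicate block, Mki67 (adjusted p = 0.00457), Ccnb2 (adjusted p = 0.017) and Top2a (adjusted p = 0.0176) were called lower in AAB than in WT, where 1.91% of all genes were called, and Mki67 (adjusted p = 0.0121) and Ccnb2 (adjusted p = 0.0387) lower than in BBA, where 0.384% were called. Without replicate 1 of BBA Tem, the AAB and WT comparison called 2 members, and with no filter it called 9 of 39. The AAB mean lay below the WT mean in each of the 10 roles: the mean of the cyclins and Cdk1 was 2.70 in AAB, 3.60 in WT and 3.75 in BBA, that of the passenger complex 2.49, 3.43 and 3.46, that of the kinesins 3.15, 3.77 and 3.83, and that of Mki67 and Top2a 5.61, 6.81 and 6.62. B cell markers summed to 102 and 178 CPM in AAB Tem and 113 and 181 in WT Tem.

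In Tnv and Tcm ex vivo no member was called between genotypes. In Tnv ex vivo, 12 members could be tested and edgeR called 0 in AAB against WT (0.166% of all genes, median 0.14), 0 in BBA against WT (2.78%, median 0.24) and 0 in AAB against BBA (0.551%, median -0.11). At unadjusted p under 0.05 the counts were 0, 0 and 1, and DESeq2 called 0 in each. In Tcm ex vivo, 25 members were tested and 0 were called in AAB against WT (0.0411%, median 0.17), in BBA against WT (0.287%, median 0.55, 23 of 25 above 0) and in AAB against BBA (0.0411%, median -0.29). Unadjusted p under 0.05 was reached by 0, 0 and 1 members and DESeq2 called 0 in each. In Tcm the replicates of 1 genotype were as far apart as the genotypes, with Mki67 at 36.4 and 23.3 CPM in WT, 26.4 and 42.7 in AAB and 65.9 and 36.7 in BBA.

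In WT Tnv few mitosis genes were called after 12 to 16 h with cytokine. The mean log2 level was 1.71 ± 0.009 ex vivo, 1.76 in IL-7 and 2.30 ± 0.56 in IL-15 (SD, n = 2), and the IL-15 libraries themselves were at 1.90 and 2.70, the higher one being the library with Cd4 and regulatory T cell markers. Cdk1 was at 0.690 and 0.465 CPM ex vivo, 0.254 and 0.665 in IL-7, and 0.669 and 1.71 in IL-15. Ccnb1 was at 0.613 and 0.988, 0.848 and 0.570, and 1.84 and 2.81 CPM. Mki67 was at 7.35 and 7.5, 4.16 and 2.66, and 4.43 and 28.7 CPM, with the highest value in the library that stood apart. In WT Tem ex vivo, for comparison, Cdk1 was at 8.41 and 6.36 CPM.

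A few members differed between cytokine cultures and ex vivo cells in Tnv of every genotype, and in opposite directions. Kif22, a chromokinesin that pushes chromosome arms towards the spindle equator, lay at 5.06 and 4.59 CPM in WT Tnv ex vivo, 9.75 and 13 in IL-7, and 10.1 and 13.7 in IL-15. It rose by 1.24 with IL-7 (SE 0.26, adjusted p = 0.0122) and by 1.34 with IL-15 (SE 0.26, adjusted p = 0.0245), with no overlap between cultures and ex vivo cells. Kif23 went the other way, from 33.1 and 32.3 CPM to 10.9 and 12.2 in IL-7 and to 14.8 and 11.6 in IL-15. It fell by 1.51 with IL-7 (SE 0.15, adjusted p = 0.00109) and by 1.28 with IL-15 (SE 0.15, adjusted p = 0.0055). Without replicate 2 of the IL-15 pair, the IL-15 differences were 1.09 for Kif22 and -1.12 for Kif23. Cenpa, the histone H3 variant that marks centromeres, lay at 16.3 and 16.3 CPM ex vivo and 23.4 and 30.1 with IL-15, a rise of 0.76 (SE 0.18, adjusted p = 0.0454) that was 0.54 without replicate 2 (adjusted p = 0.0858). Over the 18 cytokine comparisons of CD8+ and CD4+ cells, Kif22 was called in 12, always higher, Kif23 in 7, always lower, Cenpa in 7, always higher, and Ndc80, a subunit of the complex that holds microtubules at the kinetochore, in 5 of 17, always higher. The share of all genes called in these 18 comparisons ran from 0% to 20.2%.

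The counts for Tnv were as follows. IL-7 in WT called 4 of 15 members (3 higher, 1 lower), where 20.2% of all genes were called, with a median of 0.17, and Kif20a and Ndc80 were the remaining members called higher (0.69 and 0.96). That share of 15 members lay close to the share of all genes. IL-15 in WT called 3 of 15 (2 higher, 1 lower), where 6.17% of all genes were called, with a median of 0.50. The latter was 2 without replicate 2, the library that stood apart, and both counts depended on replicate 1 of WT Tnv ex vivo, without which they were 1 and 0. Without replicate 1 of the IL-15 pair they were 6 and 6, and DESeq2 called 4 in each.

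In AAB Tnv, IL-7 called 3 of 21 members (Kif22 and Top2a higher, Kif23 lower), where 9.09% of all genes were called, with a median of 0.45, and in BBA Tnv it called 2 of 21 (Kif22 higher, Kif23 lower), where 6.96% were called, with a median of 0.19. Both counts went to 0 without replicate 1 of the ex vivo libraries, and both shares of 21 members lay close to the shares of all genes. Top2a in AAB rose by 1.45 (SE 0.32, adjusted p = 0.0335), from 6.31 and 11.4 CPM to 22.8 and 25.4. Between genotypes with IL-7, edgeR called 0 of 17 in AAB against WT (0.257% of all genes, median 0.40, all 17 above 0), 0 in BBA against WT (2.69%, median 0.35) and 0 in AAB against BBA (0.148%, median 0.11). At unadjusted p under 0.05, 4, 2 and 1 members were higher and 0 lower, and DESeq2 called 2, 0 and 0. Without 1 of the libraries the first comparison called at most 1.

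**Figure D3:**
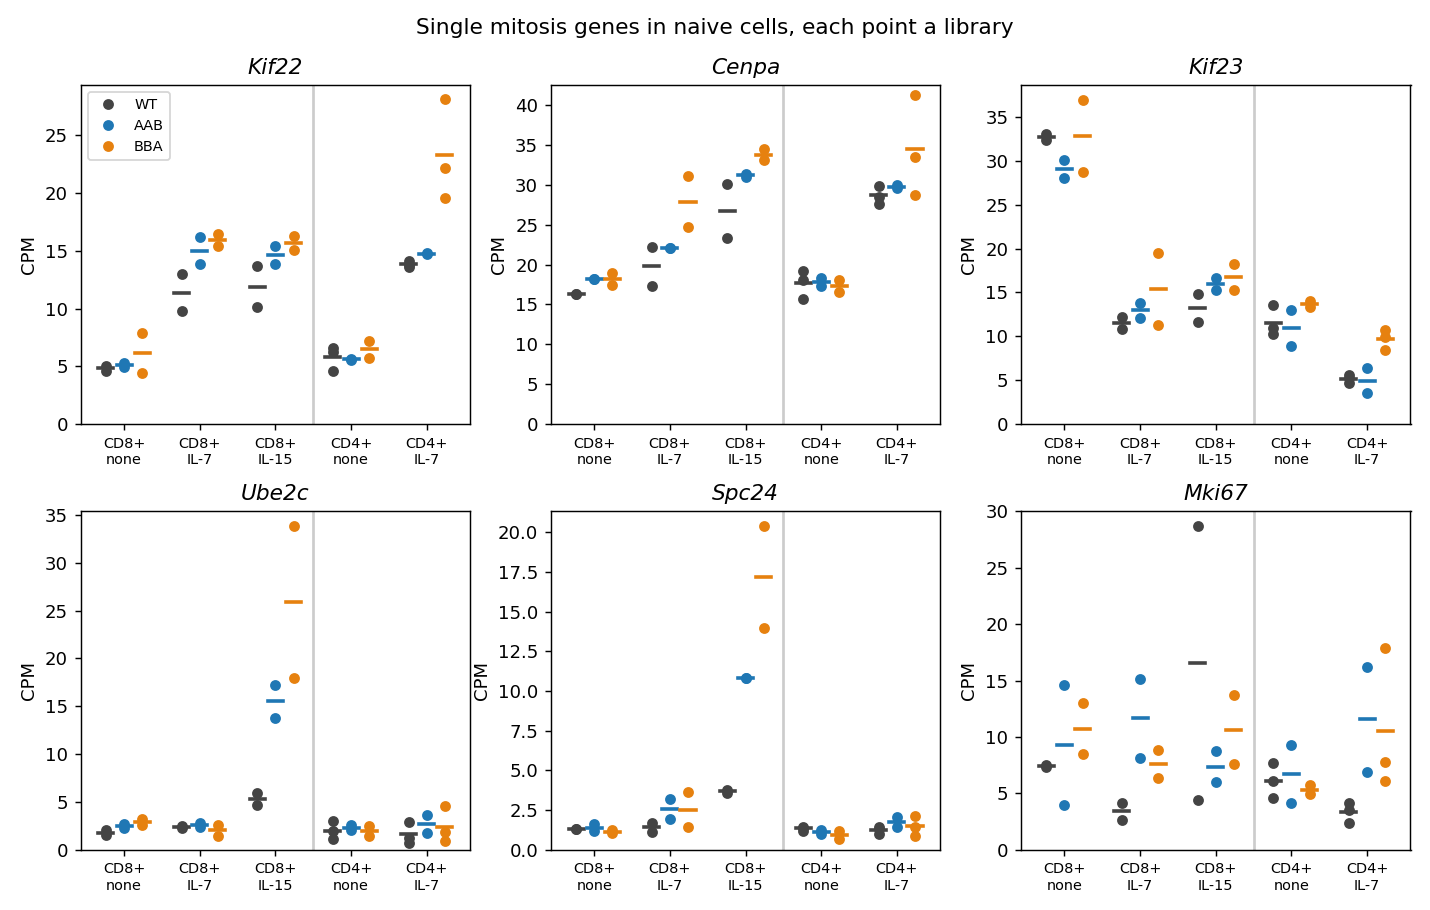
CPM of Kif22, Cenpa, Kif23, Ube2c, Spc24 and Mki67 in each naive library, CD8+ (no cytokine, IL-7, IL-15) and CD4+ (no cytokine, IL-7), by genotype. Kif22 is higher and Kif23 lower with either cytokine in every genotype, and Ube2c and Spc24 reach 33.8 and 20.4 CPM in a BBA library with IL-15 against at most 5.98 and 3.78 in WT.

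With IL-15 more members were called in the mutant naive cells than in WT, in separate fits that tested 15 members in WT and 21 in each mutant. With no filter the counts were 11 in WT, 8 in AAB and 13 in BBA, so that the order of WT and AAB depended on the filter. In BBA Tnv, 12 of 21 members were called higher with IL-15 and 0 lower, where 16.5% of all genes were called, with a median of 1.03. Spc24, a subunit of the same kinetochore complex as Ndc80, had the largest difference: it lay at 1.06 and 1.24 CPM ex vivo and 20.4 and 14.0 with IL-15, a rise of 3.96 (SE 0.53, adjusted p = 0.00192). Ube2c, the ubiquitin-conjugating enzyme of anaphase, rose by 3.26 (SE 0.43, adjusted p = 0.00181) from 3.18 and 2.59 CPM to 33.8 and 17.9. Birc5, the survivin subunit of the passenger complex, rose by 2.86 (SE 0.36, adjusted p = 0.00152) from 2.54 and 2.12 to 16.8 and 14.9, and Kif11 by 2.35 (SE 0.32, adjusted p = 0.00192) from 3.49 and 3.47 to 18.5 and 15.2. The remaining calls were Cenpf, Cenpa, Kif22, Kif15, Ndc80, Prc1, Tpx2 and Hmmr. The count was 5 without replicate 1 of BBA Tnv ex vivo.

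Mki67 and Top2a were not called. Mki67 in BBA Tnv lay at 13 and 8.48 CPM ex vivo and 13.7 and 7.65 with IL-15, and Top2a at 9.21 and 7.18 and then 9.03 and 9.08, with overlapping values. Cdk1 lay at 0.953 and 0.883 and then 2.33 and 1.08 CPM, on only 9 and 15 and then 17 and 9 reads. Ccnb1 lay at 1.59 and 0.883 and then 5.61 and 5.02 CPM, on 15 and 15 and then 41 and 42 reads. The CPM of both genes did not overlap, but for Cdk1 the read counts did. Neither gene passed the filter, so they were not tested. In AAB Tnv, IL-15 called 8 of 21 members (7 higher, 1 lower), where 10.6% of all genes were called, with a median of 0.84. Ube2c rose by 2.70 (SE 0.30, adjusted p = 0.00549), Spc24 by 3.01 (SE 0.40, adjusted p = 0.00765), and Kif23 fell by 0.81. The AAB count was 0 without replicate 1 of AAB Tnv with IL-15.

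Compared directly with WT, BBA Tnv in IL-15 had 7 of 21 members called higher and 0 lower, where 9.43% of all genes were called, and the members' median was 0.54 against -0.01 for all genes. Spc24 was at 3.59 and 3.78 CPM in WT, 10.8 and 10.8 in AAB and 20.4 and 14.0 in BBA, and the BBA value was higher than WT by 2.27 (SE 0.30, adjusted p = 0.00555). Ube2c was at 4.68 and 5.98, 17.3 and 13.8, and 33.8 and 17.9 CPM, with a difference of 2.32 (SE 0.35, adjusted p = 0.00849). For both genes the 3 genotypes did not overlap, with AAB between the others. Birc5 differed by 1.79 (SE 0.33, adjusted p = 0.0171), Cenpf, a large kinetochore and nuclear matrix protein, by 1.48 (SE 0.28, adjusted p = 0.0183), Kif11 by 1.72 (SE 0.40, adjusted p = 0.0375), Hmmr, which binds hyaluronan and spindle microtubules, by 1.14 (SE 0.28, adjusted p = 0.0431) and Tpx2 by 1.90 (SE 0.47, adjusted p = 0.048). Mki67 (-0.60, SE 0.75, adjusted p = 0.714) and Top2a (-1.19, SE 0.53, adjusted p = 0.245) pointed down, at 4.43 and 28.7 and 9.53 and 32.8 CPM in WT, where the higher value of each was in the library that stood apart. Both BBA values of Top2a lay just below the lower WT value, and those of Mki67 lay above it. The direction for Mki67 thus rested on the library that stood apart.

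Without that library the number called was again 7, and Spc24, Ube2c and Birc5 differed by 2.29, 2.5 and 2.25, but Hmmr (1.15, adjusted p = 0.0958) was no longer called. Without replicate 1 of AAB Tnv the number was 2, in a fit in which the 3 genotypes share 1 estimate of spread. AAB against WT had 0 of 21 members called by edgeR, where 0.893% of all genes were called, with a median of 0.31, 4 members higher at unadjusted p under 0.05 and 2 called by DESeq2, and 2 were called without replicate 2 of BBA. AAB against BBA had 0 of 21 called, where 0.0702% of all genes were called, with a median of -0.45, 5 lower at unadjusted p under 0.05 and 0 by DESeq2. B cell markers summed to 56.2 and 184 CPM in WT Tnv with IL-15, 85.2 and 187 in AAB and 126 and 265 in BBA, and their part in the result was not tested.

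**Figure D4:**
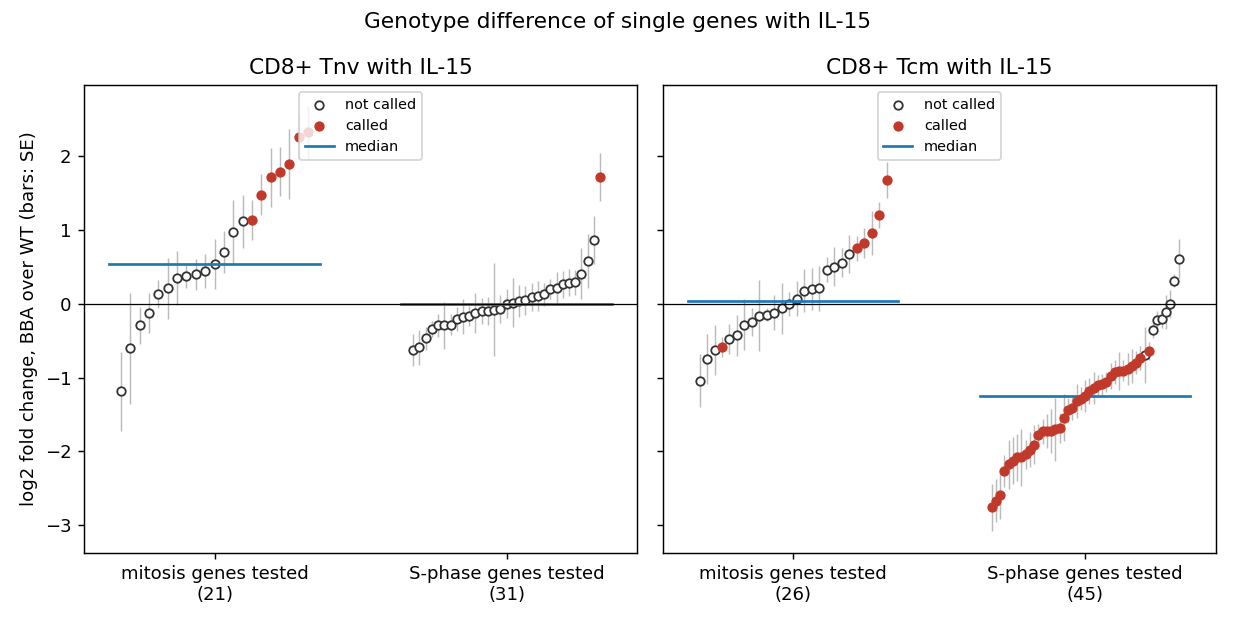
Log2 fold change of BBA over WT with IL-15, with its SE, for each tested mitosis gene and each tested S-phase gene in Tnv (21 and 31 genes) and Tcm (26 and 45 genes); called genes are filled red and the blue line is the median. In Tnv 7 mitosis genes are called higher with an S-phase median of 0.00, and in Tcm 37 S-phase genes are called lower with a mitosis median of 0.04.

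In WT Tcm nearly all members were higher with IL-7 than ex vivo, but few passed the test. The mean log2 level was 2.77 and 2.26 ex vivo, 3.87 and 3.38 in IL-7, and 3.03 and 2.95 in IL-15. With IL-7, 38 of 39 members were above 0 with a median of 1.31, 31 were higher at unadjusted p under 0.05, and edgeR called 1, where 0.353% of all genes were called. The called member was Top2a, at 30.9 and 22.4 CPM ex vivo and 98.3 and 77.1 with IL-7 (1.71, SE 0.21, adjusted p = 0.0318). Mki67, at 36.4 and 23.3 and then 93.4 and 56.2 CPM, did not pass (1.31, SE 0.29, adjusted p = 0.143). DESeq2 called 14 of the 39, edgeR with no filter 22, and edgeR without replicate 2 of WT Tcm with IL-7 called 4 and without replicate 1 of the ex vivo pair 0. Myeloid markers summed to 652 and 352 CPM in these IL-7 libraries and to 68.7 and 85.2 ex vivo, both IL-7 libraries came from males and the ex vivo ones from females, and the part of these differences in the result was not tested. With IL-15, edgeR called 0 of 39 in WT Tcm, where 0% of all genes were called, with a median of 0.45, 8 members higher and 1 lower at unadjusted p under 0.05 and 1 called by DESeq2, and 3 were called without replicate 1 of WT Tcm with IL-7.

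In the mutant Tcm the levels with IL-7 lay closer to those ex vivo. Their mean log2 level went from 2.71 ± 0.17 to 3.04 ± 0.26 in AAB and from 2.92 ± 0.45 to 3.08 ± 0.12 in BBA (SD, n = 2), and the BBA difference lay within the spread of its replicates. IL-7 called 3 of 24 members in AAB Tcm (Kif22 and Cenpa higher, Kif23 lower), where 9.92% of all genes were called, with a median of 0.43, and 1 of 26 in BBA Tcm (Kif22, 1.35, SE 0.23, adjusted p = 0.0131), where 8% were called, with a median of 0.21. Leaving out a library took the AAB count down to 1 and the BBA count to between 0 and 2. IL-15 called 0 of 24 members in AAB Tcm, where 2.86% of all genes were called, with a median of 0.32, 5 higher and 1 lower at unadjusted p under 0.05 and 3 called by DESeq2. In BBA Tcm it called 2 of 26, where 6.92% were called, with a median of 0.08, namely Kif22 (0.95) and Spc24 (1.82, SE 0.44, adjusted p = 0.0424), and 0 without replicate 2 of BBA Tcm ex vivo.

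Between genotypes of Tcm with IL-7, Mki67 lay at 93.4 and 56.2 CPM in WT, 43.0 and 35.3 in AAB and 22.1 and 40.0 in BBA, and Top2a at 98.3 and 77.1, 47.4 and 44.8, and 30.4 and 49.5. WT did not overlap with either mutant for these genes. Over the 32 tested members the medians were -0.56 for AAB against WT, with 28 below 0, and -0.46 for BBA against WT, with 26 below 0. edgeR called 0 in AAB against WT (0.0598% of all genes), 0 in BBA against WT (3.09%) and 0 in AAB against BBA (0.0898%, median -0.00). At unadjusted p under 0.05 the first had 7 lower, the second 2 higher and 5 lower and the third 0, and DESeq2 called 1, 4 and 0. Without replicate 2 of WT Tcm with IL-7, edgeR called 4 in each comparison with WT. AAB and BBA replicate 1 with IL-7 came from females and the other IL-7 Tcm libraries from males.

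With IL-15, BBA Tcm differed from WT in single members while the average stayed level. The mean over the 39 genes was 3.03 and 2.95 in WT, 2.78 and 3.13 in AAB and 3.17 and 2.84 in BBA, with full overlap. In BBA against WT, 6 of 26 members were called, 5 higher and 1 lower, where 23.7% of all genes were called, with a median of 0.04 against 0.0204 for all genes. That share of 26 members lay close to the share of all genes. Cenpa was at 11.6 and 16.2 CPM in WT, 16.7 and 15.6 in AAB and 31.6 and 29.7 in BBA, a difference of 1.21 (SE 0.17, adjusted p = 0.00218). Ube2c was at 5.41 and 4.39, 8.37 and 9.13, and 17.6 and 12.5 CPM, a difference of 1.67 (SE 0.24, adjusted p = 0.00228). BBA did not overlap with the other genotypes for either gene. Kif22 (0.75, SE 0.16, adjusted p = 0.0108), Hmmr (0.83, SE 0.20, adjusted p = 0.0163) and Cenpf (0.97, SE 0.30, adjusted p = 0.0381) were also called higher. Cdc20, the activator of the anaphase-promoting complex, was lower, at 25.1 and 22.9 CPM in WT, 16.6 and 17.7 in AAB and 14.0 and 16.3 in BBA (-0.59, SE 0.14, adjusted p = 0.0132).

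Top2a, at 63.6 and 56.9 CPM in WT Tcm with IL-15 and 36.3 and 20.0 in BBA, did not pass (-1.04, SE 0.36, adjusted p = 0.0572), nor did Mki67, at 42.8 and 41.4 and 30.6 and 17.7 (-0.75, SE 0.34, adjusted p = 0.117). Neither gene's BBA values overlapped with WT, and with a replicate block Top2a was called (-1.05, adjusted p = 0.0388). The number of called members lay between 4, without replicate 2 of WT, and 7 when single libraries were left out, and was 10 with no filter. AAB against WT had 0 of 26 called by edgeR, where 4.27% of all genes were called, with a median of -0.04, 2 higher and 1 lower at unadjusted p under 0.05 and 1 called by DESeq2. AAB against BBA had 1 of 26 called, Cenpa (-0.94, SE 0.17, adjusted p = 0.023), where 5.99% were called, with a median of -0.04, and 0 without replicate 1 of AAB. With a replicate block, 1 member was called in the first of these comparisons, Ube2c, higher in AAB (7.08% of all genes), and 3 in the second, Cenpa, Hmmr and Ube2c, lower in AAB (11.1%). B cell markers summed to 122 and 231 CPM in WT Tcm with IL-15 and 256 and 519 in BBA, and their part in these differences was not tested.

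Genes of S phase, the stage before mitosis, were followed in the same libraries. A list of 45 S-phase genes (replication licensing, nucleotide synthesis and replication fork genes) was higher in mean by 1.12 on the log2 scale in WT Tcm with IL-15 than ex vivo, where the mitosis genes were higher by 0.48, and by 0.49 with IL-7, where the mitosis genes were higher by 1.11. Those shifts are between group means of 2 libraries, and edgeR called 0 of 45 S-phase genes in either comparison. Of all genes, 0% were called with IL-15 and 0.353% with IL-7. The S-phase means of single libraries were 5.40 and 5.21 with IL-15, 5.09 and 4.26 with IL-7 and 4.28 and 4.08 ex vivo. The values with IL-7 thus overlapped with those ex vivo. In BBA against WT Tcm with IL-15, 37 of 45 S-phase genes were called lower and 0 higher, where 23.7% of all genes were called, with a median of -1.25. The mean of the mitosis genes differed by 0.01. E2f1, a transcription factor of S-phase entry (-2.27, SE 0.22, adjusted p = 0.000591), Mcm2, a subunit of the replicative helicase (-1.78, SE 0.16, adjusted p = 0.000438), and Ung, which removes uracil from DNA (-2.04, SE 0.20, adjusted p = 0.000603), were among the lowest by adjusted p. AAB against WT had 3 S-phase genes called lower and 1 higher, where 4.27% of all genes were called, and the mean differed by -0.57. In Tnv with IL-15, 1 of 31 tested S-phase genes was called higher in BBA (Tyms, thymidylate synthase, 1.71, SE 0.33, adjusted p = 0.0181) beside the 7 mitosis genes, where 9.43% of all genes were called.

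**Figure D5:**
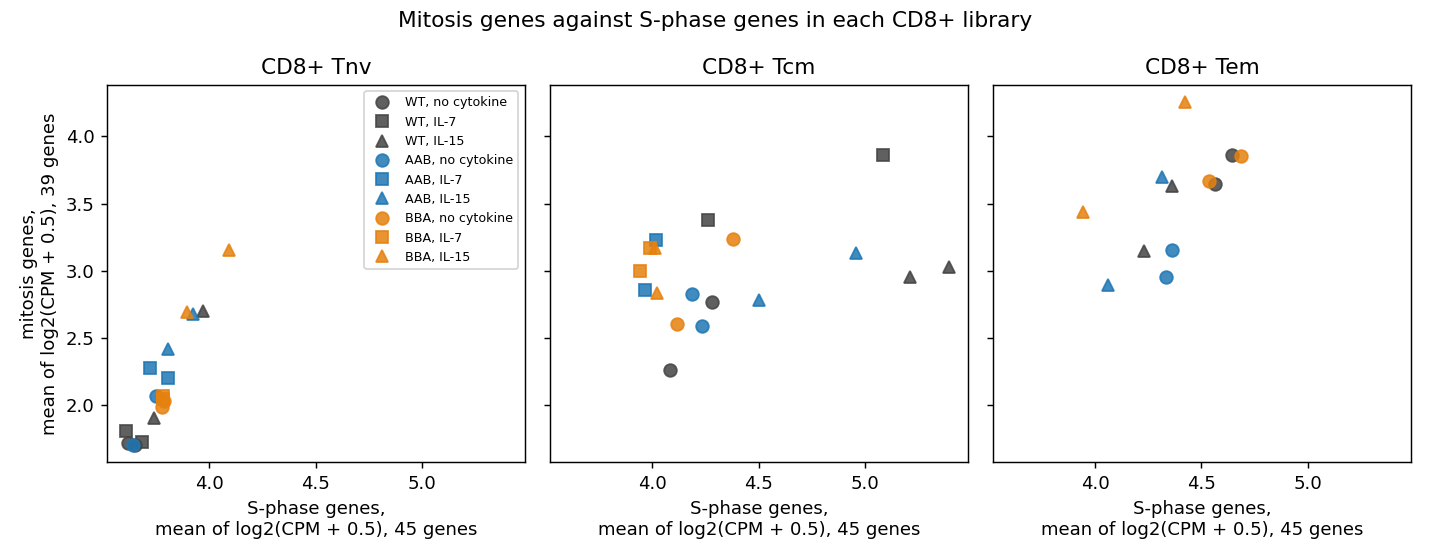
Mean log2(CPM + 0.5) of 45 S-phase genes (x axis) against that of the 39 mitosis genes (y axis) for each CD8+ library, in separate panels for Tnv, Tcm and Tem, by genotype and culture. WT Tcm with IL-15 lie at S-phase means of 5.40 and 5.21 and mitosis means of 3.03 and 2.95, whereas BBA Tcm with IL-15 lie at 4.01 and 4.02 and 3.17 and 2.84.

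The replicates of Tem cultured with IL-15 were far apart, and no member was called without a replicate block, while some were called with one. The mean log2 level of replicates 1 and 2 was 3.14 and 3.63 in WT, 2.89 and 3.70 in AAB and 3.44 and 4.26 in BBA, so that replicate 2 was higher in every genotype. B cell markers moved with it, at 52.9 and 154 CPM in WT, 64.7 and 215 in AAB and 86.2 and 239 in BBA, and their part in the members' level was not tested. Against ex vivo Tem, edgeR called 0 of 30 in WT (1.52% of all genes, median -0.30), 0 of 26 in AAB (0.94%, median 0.26) and 0 of 26 in BBA (0.432%, median 0.04). At unadjusted p under 0.05 the counts were 0 higher and 6 lower in WT, 4 higher and 1 lower in AAB and 4 higher and 2 lower in BBA, and DESeq2 called 3, 2 and 4. With a replicate block, 5 members were called lower in WT, among them Mki67 (-0.86, adjusted p = 0.00194) and Top2a (-0.73, adjusted p = 0.00278), where 5.92% of all genes were called. In AAB 4 were called higher, among them Ube2c (1.72, adjusted p = 0.00124), and Kif23 was called lower, where 8.4% were called, and in BBA 3 were called higher, Cenpf, Ube2c and Kif22, where 10.7% were called. Leaving out 1 IL-15 library raised the counts to 9 in WT (without replicate 2), 6 in AAB and 8 in BBA (each without replicate 1).

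Between genotypes of Tem with IL-15, edgeR called 0 of 29 in AAB against WT (0.019% of all genes, median -0.01), 0 in BBA against WT (1.79%, median 0.52, 28 of 29 above 0) and 0 in AAB against BBA (0.00949%, median -0.50, all 29 below 0). The counts at unadjusted p under 0.05 were 0, 4 higher and 3 lower, and DESeq2 called 0, 1 and 0. The lowest adjusted p in BBA against WT was that of Cenpa (0.54, SE 0.13, adjusted p = 0.102), at 26.4 and 23.8 CPM in WT and 35.4 and 36.7 in BBA. Kif22, at 16.6 and 16.0 and then 24.7 and 32.4 CPM, followed with 0.82 (SE 0.21, adjusted p = 0.124). These genes did not overlap between BBA and WT. Spc24 and Ube2c, called in Tnv, lay at 4.21 and 11.4 and at 6.82 and 16.9 CPM in WT and at 12.5 and 48.2 and at 18.3 and 64.6 in BBA, with differences of 1.95 (SE 0.83, adjusted p = 0.297) and 1.80 (SE 0.68, adjusted p = 0.254). With a replicate block these genes were called higher in BBA than in WT (1.87, adjusted p = 0.00108, and 1.72, adjusted p = 0.00612), as were Cenpf, Kif11, Birc5, Kif22 and Prc1, 7 in all, where 14.5% of all genes were called, and Cenpf and Prc1 were called lower in AAB than in BBA, where 2.36% were called.

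In naive CD4+ cells Kif22, Kif23 and Ndc80 differed between the IL-7 culture and ex vivo cells, as they did in naive CD8+ cells. The mean log2 level in WT was 1.5 ± 0.17 ex vivo and 1.57 ± 0.10 with IL-7 (SD, n = 3), all libraries came from males, and the tables of CD8+ and CD4+ cells were scaled separately. Kif22 lay at 6.55, 6.24 and 4.59 CPM ex vivo and 14.1, 13.6 and 13.8 with IL-7, a rise of 1.27 (SE 0.17, adjusted p = 0.000509). Kif23 went from 10.9, 10.2 and 13.5 CPM to 5.20, 4.64 and 5.60 and fell by 1.18 (SE 0.18, adjusted p = 0.00106). Cenpa went from 19.2, 18.0 and 15.7 to 27.7, 29.9 and 28.5 (0.71, SE 0.11, adjusted p = 0.00137) and Ndc80 from 5.33, 5.90 and 4.51 to 11.9, 12.8 and 9.74 (1.15, SE 0.18, adjusted p = 0.0014). None of these 4 genes overlapped between ex vivo and IL-7. Mki67 fell by 0.87 (SE 0.29, adjusted p = 0.0425), from 6.06, 7.69 and 4.59 CPM to 4.16, 3.49 and 2.39, and Cdc20 rose by 0.74 (SE 0.22, adjusted p = 0.0274).

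In all, IL-7 called 6 of 17 members in WT CD4+ cells (4 higher, 2 lower), where 16.7% of all genes were called, with a median of 0.22, 3 of 15 in AAB (Kif22, Cenpa and Ndc80, all higher), where 11.2% were called, with a median of 0.41, and 4 of 13 in BBA (Kif22, Cenpa, Ndc80 and Racgap1, all higher), where 12.4% were called, with a median of 0.62. The lowest counts on leaving out a library were 4, 2 and 2, the last without replicate 2 of BBA ex vivo. The mutant levels with IL-7 varied between replicates, with Mki67 at 16.2 and 6.92 CPM in AAB and 7.76, 17.9 and 6.07 in BBA, all above WT.

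Between genotypes of CD4+ cells ex vivo, edgeR called 0 of 20 in AAB against WT (0.373% of all genes, median 0.02), 0 in BBA against WT (1.13%, median 0.10) and 0 in AAB against BBA (0.0765%, median -0.12), with 0, 1 and 0 members at unadjusted p under 0.05 and 0 by DESeq2 in each. With IL-7, BBA against WT had 2 of 11 called, both higher, where 5.55% of all genes were called, with a median of 0.37. Kif22 was at 28.2, 19.6 and 22.2 CPM in BBA, above the 13.6 to 14.1 of WT and the 14.7 to 14.8 of AAB (0.77, SE 0.14, adjusted p = 0.00841). Kif23 was at 8.42, 9.87 and 10.7 in BBA against 4.64 to 5.60 in WT (0.92, SE 0.25, adjusted p = 0.0471), so that the fall of Kif23 with IL-7 left BBA higher than WT. The number called lay between 1, without replicate 1 of WT, and 3. AAB against WT had 0 of 11 called (0.627%, median 0.12, 1 higher at unadjusted p under 0.05, 1 by DESeq2) and AAB against BBA 0 of 11 (1.57%, median -0.03, 3 lower at unadjusted p under 0.05, 2 by DESeq2), where leaving out a library gave at most 1.

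Whether the difference between cytokine culture and ex vivo cells was unlike in a mutant and in WT was tested directly as an interaction. In 12 such contrasts edgeR called 0 of 334 member tests. The shares of all genes called were, for AAB and BBA in this order, 0.307% and 1.86% for IL-7 in Tnv, 0.0287% and 1.49% for IL-15 in Tnv, 0.309% and 1.06% for IL-7 in Tcm, 0% and 4.26% for IL-15 in Tcm, 0% and 0.00922% for IL-15 in Tem and 0.0191% and 1.11% for IL-7 in CD4+ cells. DESeq2 called 1 member each for IL-15 in BBA Tnv and IL-7 in BBA Tcm. The nearest to the threshold in Tnv was Spc24 with IL-15 in BBA, with an interaction of 2.43 (SE 0.63, adjusted p = 0.0683), in a contrast with 3 of 21 members higher at unadjusted p under 0.05 and a median of 0.37. In Tcm it was Cenpa with IL-15 in BBA, at 0.91 (SE 0.28, adjusted p = 0.0898). For IL-7 in BBA Tcm, 14 of 34 members were lower at unadjusted p under 0.05 with a median of -1.06, Mki67 had an interaction of -2.01 (SE 0.60, adjusted p = 0.129), and 4 members were called without replicate 2 of WT Tcm with IL-7. The other contrasts had between 0 and 5 members at unadjusted p under 0.05 in either direction. The 7 calls of BBA against WT Tnv with IL-15 are therefore differences within that culture, and the interaction with the cytokine did not pass the test for any of them.

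The retrovirus libraries, which came from activated cells grown on in IL-2, had mean log2 levels above those of all other libraries except 1 BBA Tem library with IL-15, at 4.24 and 4.22 with CA-STAT5A and 4.08 and 3.97 with the empty vector, in a table scaled on its own. All 39 members were tested, 1 was called higher with CA-STAT5A and 0 lower, where 6.76% of all genes were called, and the median was 0.20 with 31 above 0. Racgap1 was at 175 and 174 CPM with CA-STAT5A and 116 and 74.6 with the empty vector (0.87, SE 0.20, adjusted p = 0.0496), and was not called without replicate 1 of CA-STAT5A or with DESeq2 size factors. Ndc80, at 15.9 and 15.9 against 10.1 and 8.95 CPM, did not pass (0.74, SE 0.19, adjusted p = 0.0678). Mki67 was at 223 and 246 CPM with CA-STAT5A and 211 and 168 with the empty vector. Stat5a, the transduced gene, was higher by 3.37 (SE 0.38, adjusted p = 0.00644). Myeloid markers summed to 1342 and 1192 CPM with CA-STAT5A and 690 and 508 with the empty vector. The higher sum came from Itgam, at 1266 and 1118 against 289 and 312 CPM. Lyz2, Cd14, Csf1r, S100a8 and S100a9 were each lower with CA-STAT5A, Lyz2 at 22.5 and 23.5 against 199 and 88.7 CPM. B cell markers summed to 20.2 and 37.0 against 218 and 177 CPM. The part of these markers in the members' levels was not tested. Each arm held 1 male and 1 female library, and a pairing by sex was not tested.

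A further list of 88 genes of G2 and mitosis, which holds none of the members, was counted in the same comparisons. In WT Tem against Tnv, 26 of 49 tested genes of that list were called higher, with a median of 1.06, and 21 of 42 S-phase genes were called higher, where 7.91% of all genes were called. In BBA against WT Tnv with IL-15, 5 of 38 were called higher, where 9.43% of all genes were called. That share of 38 genes lay close to the share of all genes. The called genes included Ska3, part of a complex that tracks microtubules at kinetochores (2.24, SE 0.28, adjusted p = 0.00498). In BBA against WT Tcm with IL-15, 6 of 47 were called higher and 14 lower, where 23.7% of all genes were called, with a median of -0.23. These calls were led by Cdc25b, a phosphatase that activates CDK1 (1.46, SE 0.11, adjusted p = 0.000259), and by the lower Tuba1b, an alpha tubulin (-1.32, SE 0.13, adjusted p = 0.0006), and Wee1, a kinase that holds CDK1 inactive (-2.02, SE 0.25, adjusted p = 0.00128). Foxm1 and Mybl2, transcription factors known to switch on mitotic genes, were higher in WT Tem than in Tnv by 1.52 (SE 0.21, adjusted p = 0.00686) and 1.95 (SE 0.26, adjusted p = 0.00527), and Mybl2 rose by 1.48 with IL-15 in BBA Tnv (SE 0.39, adjusted p = 0.0317).

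Some members share exon sequence with a gene on the opposite strand, and since the use of strand in the counting was not given in the sources used here, reads from the partners cannot be told apart. The overlap was 144 bases for Ube2c and Tnnc2, 53 for Cdc20 and Elovl1, 96 for Kif22 and Gm31749, 683 for Kif4 and Pdzd11, 428 for Ccna2 and Exosc9, 670 for Prc1 and Rccd1 and 977 for Kif20a and Cdc23.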

How the data were processed

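Members and gene lists were chosen with earlier results of these data known. Per the study's methods and the submitters' processing notes, single-end reads of poly(A) RNA were aligned with TopHat2 and counted per gene with HTSeq; the methods name build mm10 and the notes mm9, and the use of strand is not given in the sources used here. The deposited values are raw counts per gene. In the retrovirus table, summary rows that name no gene took 67.0 to 68.4% of each column and were left out.

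Counts were tested with edgeR 4.0.16 (R 4.3.3; TMM, quasi-likelihood F test in its older form) after the low-count filter of HTSFilter, re-implemented (maximum Jaccard index over 100 thresholds from 1 to 200). Fits held 1 condition with its 3 genotypes, 1 genotype and state with its cultures, all libraries of a state (interactions), or 1 genotype's ex vivo states. A call was over 1.5-fold at a Benjamini-Hochberg adjusted p under 0.05 over all genes tested. The code was tested on simulated data. Levels are TMM-normalized CPM with a pseudocount of 0.5 for logs. Alternatives were DESeq2 1.42.0, its size factors, no filter, one fit over a table, a replicate block and leaving out each library. The study's methods describe 2 to 4 biological replicates per group, and its reporting summary 2 or 3 mice per group over 2 or 3 trials. The labels do not tie libraries to animals or trials. Culture times are those of the sample records, and the methods name a longer upper limit. None of these sources says what a shared replicate number stands for. The residuals of libraries with the same number, about the mean of each group, correlated over 0.1 for every pair of groups in the 3 state fits (0.416 to 0.705), in 6 of 10 genotype fits (CD8+ Tnv with IL-7, Tcm ex vivo and with IL-15, Tem ex vivo and with IL-15, CD4+ ex vivo) and in 4 of 11 cytokine fits (Tem, 0.445 to 0.708, and BBA CD4+), and blocked counts that differ by over 1.5 times are given beside those results. Replicates of every group differed by more than counting noise (chi-square over its degrees of freedom, 5.5 to 93.2).

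Named were the role representatives Mki67, Top2a, Ccnb1, Cdk1, Cdc20, Plk1, Aurkb, Birc5, Kif11, Cenpa, Mad2l1 and Anln where a comparison turned on them, up to 6 called members per comparison by adjusted p with the largest difference in each direction, Stat5a, Stat5b, Foxm1, Mybl2, and up to 3 called genes of the S-phase and further mitosis lists; uncalled members given beside them were chosen after their values were seen. Motifs were searched in RefSeq promoters (GRCm38.p6).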

Additional observations from a re-analysis of the deposited data

How the results depend on the processing

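With 2 or 3 libraries per group, the number of called mitosis genes depended on the processing more than the size of their differences did. None of the called values changed sign under any alternative, and past the threshold were 142 of 142 with DESeq2, 140 of 142 with DESeq2 size factors, 132 of 142 without the filter, 125 of 141 in one fit over the table, 134 of 138 with the replicate block and 491 of 828 when single libraries were left out. The cause of each move was not tested. DESeq2 moved the number of called members by more than 1.5 times in 25 of 70 comparisons, to these counts (edgeR in parentheses): 20 for WT Tem over Tcm (9), 14 for IL-7 in WT Tcm (1), 11 for WT Tcm over Tnv (4) and BBA Tcm over Tnv (0), 5 for AAB Tcm over Tnv (2), 4 for BBA against WT Tcm with IL-7 (0), AAB against WT Tem ex vivo (0), IL-15 in BBA Tcm (2) and IL-15 in BBA Tem (0), 3 for AAB against BBA Tem ex vivo (0), IL-15 in AAB Tcm (0), IL-7 in BBA Tcm (1), IL-15 in WT Tem (0) and BBA Tem over Tcm (0), 2 for AAB against WT Tnv with IL-7 (0), AAB against WT Tnv with IL-15 (0), AAB against BBA CD4+ with IL-7 (0) and IL-15 in AAB Tem (0), 1 for AAB against WT Tcm with IL-7 (0), AAB against WT Tcm with IL-15 (0), BBA against WT Tem with IL-15 (0), AAB against WT CD4+ with IL-7 (0), the BBA interaction with IL-15 in Tnv (0), IL-15 in WT Tcm (0) and the BBA interaction with IL-7 in Tcm (0). DESeq2 size factors in edgeR moved 1 of 70: 0 for the retrovirus (1).

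Without the filter on low counts, which put all 39 members into each test, 35 of 70 moved: 30 for WT Tem over Tcm (9), 22 for IL-7 in WT Tcm (1), 20 for AAB Tem over Tnv (10), 17 for WT Tcm over Tnv (4), 16 for BBA Tcm over Tnv (0), 12 for AAB Tcm over Tnv (2), 11 for IL-15 in WT Tnv (3), 10 for BBA against WT Tcm with IL-15 (6), 9 for AAB against WT Tem ex vivo (0), 8 for BBA Tem over Tcm (0), 6 for AAB against BBA Tem ex vivo (0), 5 for BBA against WT Tcm with IL-7 (0), AAB against BBA Tcm with IL-15 (1), IL-7 in BBA Tcm (1) and IL-15 in BBA Tcm (2), 4 for AAB against WT Tnv with IL-15 (0), AAB against WT Tcm with IL-7 (0), BBA against WT CD4+ with IL-7 (2) and IL-15 in BBA Tem (0), 3 for AAB against WT Tnv with IL-7 (0), BBA against WT Tem with IL-15 (0), IL-15 in WT Tcm (0) and IL-15 in WT Tem (0), 2 for IL-15 in AAB Tem (0) and the retrovirus (1), 1 for BBA against WT Tnv with IL-7 (0), BBA against WT Tcm ex vivo (0), AAB against WT Tcm with IL-15 (0), the BBA interaction with IL-15 in Tnv (0), IL-15 in AAB Tcm (0), the BBA interaction with IL-7 in Tcm (0), the BBA interaction with IL-15 in Tcm (0), IL-7 in AAB CD4+ (3) and AAB Tem over Tcm (0) and 0 for IL-7 in BBA Tnv (2). One fit over all libraries of a table moved 13 of 69: 8 for IL-7 in WT Tcm (1), 7 for IL-15 in WT Tnv (3), 5 for IL-15 in BBA Tem (0) and IL-7 in AAB CD4+ (3), 4 for BBA against WT Tcm with IL-7 (0), 3 for BBA against WT Tem with IL-15 (0) and BBA Tcm over Tnv (0), 2 for IL-7 in BBA Tcm (1) and IL-15 in AAB Tem (0), 1 for AAB against WT Tcm with IL-7 (0), IL-15 in WT Tcm (0), the BBA interaction with IL-15 in Tcm (0) and AAB Tcm over Tnv (2).

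A replicate block, with the number in the labels as a term, moved 18 of 68: 26 for WT Tem over Tcm (9), 15 for WT Tcm over Tnv (4), 13 for AAB Tcm over Tnv (2), 12 for BBA Tcm over Tnv (0), 7 for BBA against WT Tem with IL-15 (0) and BBA Tem over Tcm (0), 5 for IL-15 in WT Tem (0) and IL-15 in AAB Tem (0), 3 for AAB against BBA Tcm with IL-15 (1), AAB against WT Tem ex vivo (0) and IL-15 in BBA Tem (0), 2 for AAB against BBA Tem ex vivo (0) and AAB against BBA Tem with IL-15 (0), 1 for AAB against WT Tnv with IL-15 (0), AAB against WT Tcm with IL-15 (0), AAB against WT CD4+ with IL-7 (0), IL-15 in BBA Tcm (2) and AAB Tem over Tcm (0). Among the comparisons whose same-numbered libraries did not all correlate over 0.1, the block is given only here. The block could not be fitted for IL-7 in AAB CD4+ cells. No block was fitted for the retrovirus arms, because their labels share fewer than 2 replicate numbers, since 1 empty vector library carries none. A block by sex, with 1 male and 1 female library in each arm, was not tested.

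Leaving out each library in turn moved 102 of 544 counts, with these ranges: 0 to 1 for AAB against WT Tnv with IL-7, AAB against BBA Tcm with IL-15, AAB against BBA CD4+ with IL-7 and the retrovirus, 0 to 2 for AAB against WT Tnv with IL-15, AAB against WT Tem ex vivo, IL-7 in BBA Tnv, the BBA interaction with IL-15 in Tnv, IL-7 in BBA Tcm and AAB Tcm over Tnv, 0 to 3 for IL-15 in WT Tcm, IL-15 in BBA Tcm and BBA Tcm over Tnv, 0 to 4 for AAB against WT Tcm with IL-7, BBA against WT Tcm with IL-7, IL-7 in WT Tcm and the BBA interaction with IL-7 in Tcm, 0 to 5 for IL-7 in AAB Tnv, 0 to 6 for IL-15 in WT Tnv and IL-15 in AAB Tem, 0 to 8 for IL-15 in BBA Tem, 0 to 9 for IL-15 in WT Tem, 0 to 10 for WT Tem over Tcm, 0 to 11 for IL-15 in AAB Tnv, 0 to 12 for WT Tcm over Tnv, 0 to 21 for BBA Tem over Tnv, 1 to 2 for IL-7 in AAB Tcm, 1 to 3 for BBA against WT CD4+ with IL-7, 1 to 6 for IL-7 in WT Tnv, 1 to 10 for AAB Tem over Tnv, 2 to 4 for IL-7 in BBA CD4+, 2 to 7 for BBA against WT Tnv with IL-15, 5 to 13 for IL-15 in BBA Tnv and 16 to 29 for WT Tem over Tnv. The mean log2 level over the 39 genes moves with the pseudocount, which weighs genes of low count: in WT Tnv ex vivo it was 1.71 with 0.5 CPM, 1.36 with 0.1 and 2.42 with 2. Few reads limit the scarce members, among them Ttk, Nuf2, Spc25, Anln, Kif4, Cdk1 and Aurkb.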

Other observations

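Naive CD4+ cells included 2 further libraries, 1 of AAB and 1 of BBA, whose labels disagree on whether the cells were taken without cytokine or after IL-7, and which entered no comparison. Their mean log2 level over the 39 mitosis genes was 1.59 in the AAB and 1.62 in the BBA library. In this order, Mki67 lay at 6.94 and 6.38 CPM, Top2a at 9.16 and 7.77, Kif22 at 6.87 and 7.03, Kif23 at 13.2 and 19.5, Cenpa at 24.3 and 27.6 and Ndc80 at 7.78 and 4.25.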
